A study of Mus musculus with 9 samples.

Results

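The genes described here encode the enzymes that remove superoxide and peroxides or attach glutathione to reactive molecules, together with the enzymes that make and recycle glutathione and the transcription factor Nfe2l2 (Nrf2). They were chosen by name: every row of the deposited gene table named as a superoxide dismutase (Sod), glutathione peroxidase (Gpx), peroxiredoxin (Prdx) or cytosolic glutathione transferase (Gst of the alpha, mu, pi, theta, omega or zeta class), plus Cat, Gclc, Gclm, Gss, Gsr, Txn1, Txnrd1, Nqo1 and Nfe2l2. This gave 57 of 56980 rows, of which 37 had enough counts to be tested, 12 had counts too low to test and 8 had no count in any library. The study sequenced RNA of wild-type C57BL/6 mice, 5 aged (20 months old) and 4 young (3 months old), with no treatment other than age; the labels call the mice of an age biological replicates. The labels name bone marrow, while the extraction protocol names homogenised trabecular bone, so marrow and bone cells can both contribute. Markers of red cell precursors, neutrophils, osteoblasts and skeletal muscle were all detected in every library, with summed TPM of 26439.5 to 399578 for the first, 45571 to 148831 for the second, 194 to 4002 for the third and 3071 to 8169 for the last.

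Superoxide, a by-product of respiration and the product of the phagocyte oxidase, is turned into hydrogen peroxide by superoxide dismutases. Catalase, the peroxiredoxins and the glutathione peroxidases then reduce hydrogen peroxide, the peroxiredoxins with electrons from thioredoxin and the glutathione peroxidases with electrons from glutathione. Glutathione is made by glutamate-cysteine ligase (Gclc with its modifier Gclm) and glutathione synthetase (Gss), and it is recycled by glutathione reductase (Gsr). Nrf2 is known to drive many of these genes through the antioxidant response element, and red cells, which carry oxygen on iron-containing hemoglobin, are known to hold large amounts of catalase, peroxiredoxin 2 and glutathione peroxidase 1.

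Aged 3, aged 4 and young 4 stood apart: their ribosomal protein transcripts made up 6.13% to 7.30% of counts, against 3.17% to 3.43% in the remaining 6 libraries. These 3 libraries are shown apart, and a fit with this library set as a term stands beside the fit on age alone. The set was chosen with earlier results of these data known, and the labels name no batch. Calls under the set term are thus not independent of that choice. The series design calls the mice female, but Xist was at 7909 to 21724 counts in aged 1 to 4 and at 1 to 9 counts in aged 5 and young 1 to 4, and the Y-linked gene Ddx3y was at 0 counts in aged 1 to 4 and at 888 to 1721 in aged 5 and young 1 to 4. Age and sex chromosome transcripts thus cannot be told apart except through aged 5, whose differences from young 1 to 3 are given for the genes that passed and for several others. Library totals were 19804883 to 23548594 estimated counts in aged and 20120991 to 23336827 in young libraries, and hemoglobin genes took 0.697% to 16.1% of them in aged and 6.98% to 21.8% in young libraries.

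Among the cytoprotective genes, catalase, the quinone reductase Nqo1, the catalytic subunit of glutathione synthesis Gclc, the red cell peroxiredoxin Prdx2, mitochondrial Prdx3, Gpx1 and the mu-class transferase Gstm5 were lower on average in aged libraries. The superoxide dismutases Sod1 and Sod2, thioredoxin and its reductase Txnrd1, Prdx1, Prdx5, Prdx6 and Nfe2l2 itself had log2 fold changes of 0.07 to 0.35, and the secreted dismutase Sod3 was higher on average. With age as the only term, edgeR's quasi-likelihood test called 0 of the 37 tested members at an adjusted p under 0.05, as it did 0 of all 16576 tested genes (0.0%). At an unadjusted p under 0.05, 4 members were lower (Nqo1, Cat, Prdx3 and Gclc) and 1 was higher (Sod3), against 4.64% lower and 4.15% higher over all genes. With the library set as a term, 3 members passed and all 3 fell (Prdx3, Gstm5 and Gpx1) while 0 rose, against 319 of all genes (1.92%), of which 1.31% fell and 0.615% rose. The 3 calls lay close to the threshold, and Prdx2, Nqo1 and Cat lay just past it. They were lost on leaving out any one of aged 1, 2 or 4 or young 1 to 4 (0 members called), while 8 members passed without aged 3 and 4 without aged 5. Of the 37 members, 21 were above 0 and 16 below in the fit on age alone, with a median log2 fold change of 0.04 against 0.03 over all genes. With the set term 16 were above 0 and 21 below, with a median of −0.02 against 0.01.

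**Figure D1:**
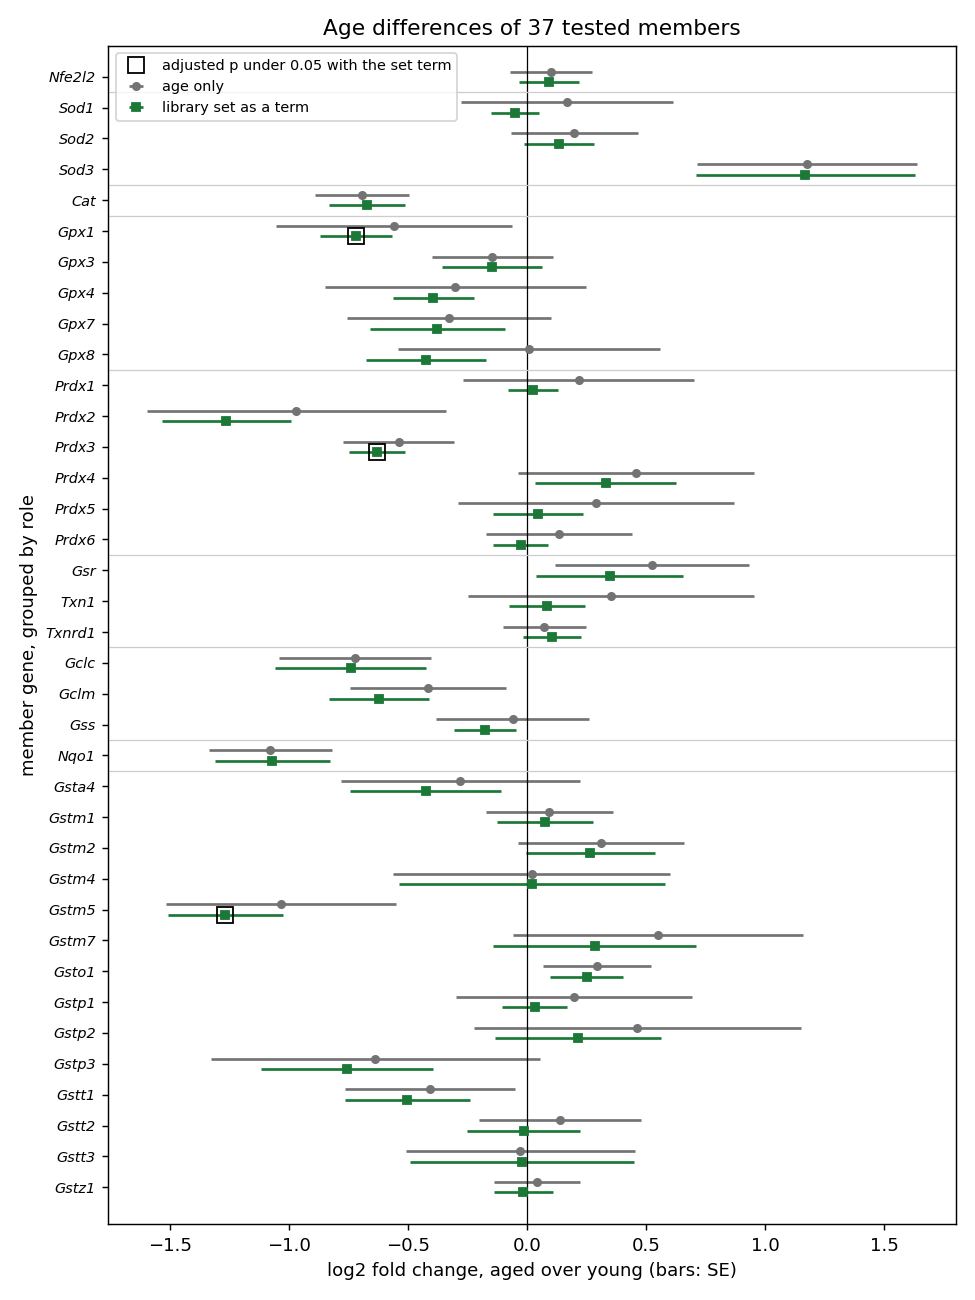
Log2 fold change of aged over young for each of the 37 tested members (points, with SE bars), in the fit on age alone (circles) and in the set-term fit (squares); framed squares passed an adjusted p of 0.05. Most members lie near 0, while Nqo1, Gstm5, Prdx2, Cat, Gclc, Gpx1 and Prdx3 lie left of it in both fits and Sod3 lies to the right.

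Levels per length (the deposited TPM, transcripts scaled to a fixed total per library) spread widely among the tested members. Gpx1, the selenium-dependent peroxidase of the cytosol, led with 1414 to 2544 TPM in aged and 2130 to 3334 TPM in young libraries. It alone made up 30.4% to 43.1% of the summed TPM of all 57 members. Prdx5, Prdx2, Gpx4, Sod1, Txn1, Gsr and Prdx1 followed, with means over the 9 libraries of 603, 548, 512, 487, 304, 224 and 162 TPM. Their ranges over libraries overlap, so neighbours in this order are not told apart. At the low end, Gsta4, Gpx7, Gstt3, Sod3 and Gstm7 averaged 3.39, 2.42, 2.25, 1.78 and 1.30 TPM. Summed over a family, glutathione peroxidases stood at 2642 ± 575 TPM in aged and 3276 ± 829 TPM in young libraries (SD, n = 5 and 4), peroxiredoxins at 1485 ± 338 in aged and 1584 ± 251.3 in young, and glutathione transferases at 445.8 ± 86.6 in aged and 404.0 ± 21.6 in young. Errors are SD over these numbers of libraries throughout. Superoxide dismutases stood at 605.4 ± 122.7 TPM in aged and 507.0 ± 17.2 in young libraries, and the 3 glutathione synthesis genes at 115.7 ± 24.8 in aged and 163.0 ± 40.5 in young. TPM is a share of each library, so a level depends on what else the library holds.

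**Figure D2:**
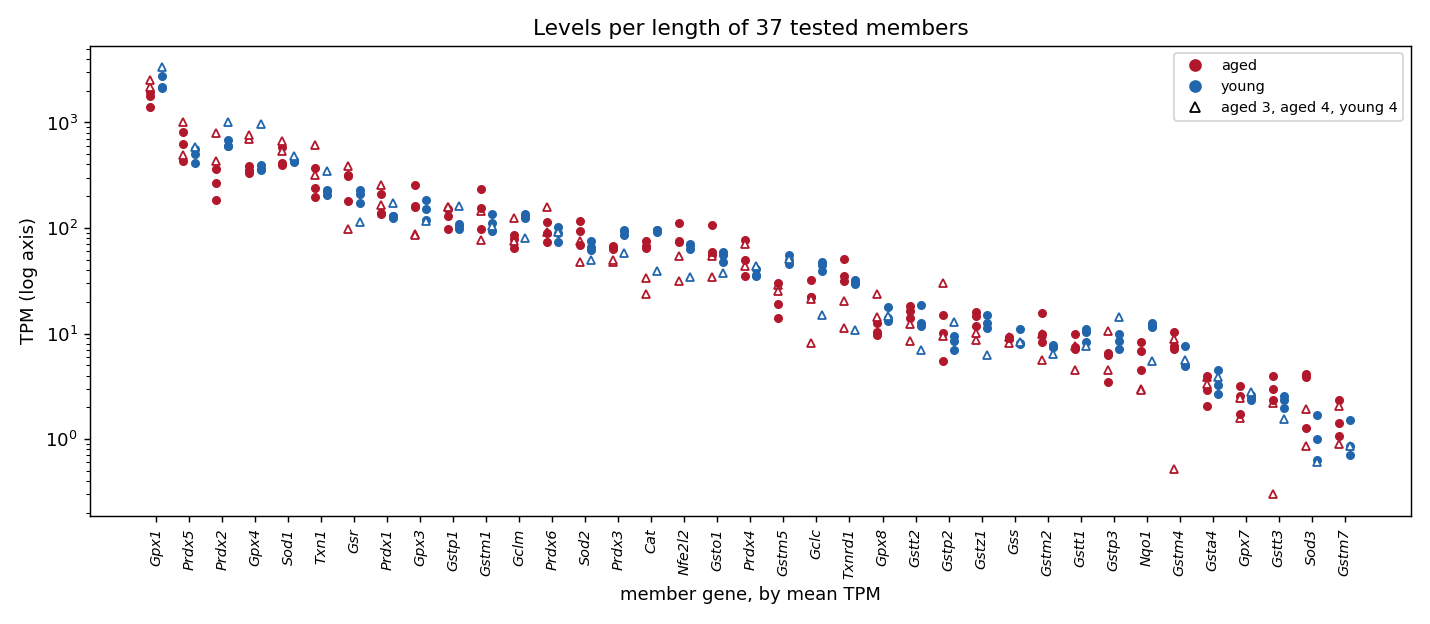
TPM (log axis) of the 37 tested members in each library, ordered by mean TPM; aged libraries are red and left of young libraries in blue, with aged 3, aged 4 and young 4 as open triangles. Gpx1 lies at or above 1414 TPM in every library, and Gstm7 and Sod3 lie lowest.

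The 20 members without a test had few counts or none. No count was seen for Gpx5 and Gpx6, for Prdx6b and for 5 rows with pseudogene names (Gpx4-ps1, Gstm2-ps1, Prdx1-ps, Prdx2-ps1 and Prdx2-ps2). The alpha-class transferases Gsta1, Gsta2, Gsta3 and Gsta5 had at most 15 counts in a library, Gpx2 had 2 counts in all, and Gstm3, Gstt4, Gpx2-ps1 and Prdx6-ps2 had 3 or fewer in all. Gstm6, Gsto2 and Gpx4-ps2 reached 18, 26 and 28.7 counts in their highest library. Estimated counts were not whole numbers for 10 of the 37 tested members (Gpx1, Gpx4, Gclm, Gstm5, Gstp1, Gstp2, Gstz1, Prdx2, Prdx5 and Sod2), as where reads are shared among similar rows, so their values are uncertain to that extent.

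In TMM-scaled CPM, the 3 libraries that stood apart carried more of many defence transcripts. Of the 37 members, 16 were higher in aged 3, aged 4 and young 4 than in every one of the other 6 libraries, against 20.0% of all genes, and 0 were lower than in all 6, against 20.9%. Among them were Sod1, Txn1, Gpx1, Gpx4, Prdx1 and Prdx5. In the deposited TPM, Gpx4 kept this order (704 to 965 in the 3, 329 to 393 in the other 6). Sod1, Txn1, Gpx1, Prdx1 and Prdx5 did not, so for these the difference depended on scaling. In log2 CPM, young 4 exceeded the mean of young 1 to 3 by 2.03 for Gpx4, 1.90 for Txn1, 1.81 for Prdx5 and 1.38 for Sod1. The mean of aged 3 and aged 4 exceeded that of aged 1, 2 and 5 by 1.33, 1.76, 1.61 and 1.36. In log2 CPM, Nfe2l2, Cat, Nqo1 and Txnrd1 differed little between the sets, by 0.27, −0.06, 0.10 and −0.22 in young libraries. In aged libraries they differed by −0.05, −0.29, −0.10 and −0.23. In TPM these genes were lower in the 3 libraries than in every other library of the same age. Cat, for example, was at 38.8 TPM in young 4 against 90.8 to 96.5 TPM in young 1 to 3. The 16 members had a median transcript length of 1061.5 bases in the deposited table, against 1590 for the other members. Over all genes the same split gave 1549 and 2981 bases. The part of length in this difference was not tested.

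**Figure D3:**
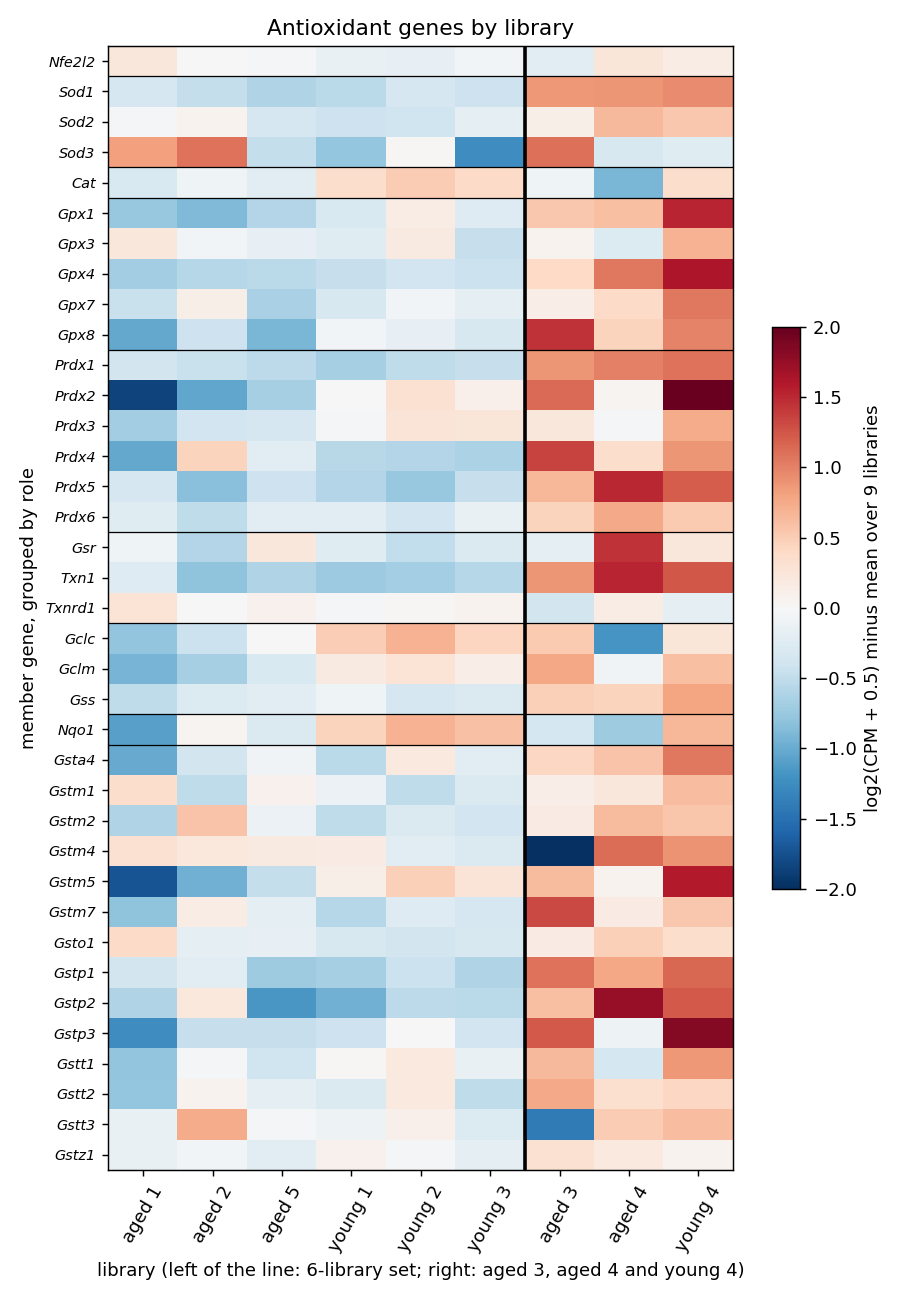
Level of each tested member in each library, as log2(CPM + 0.5) minus the gene's mean over the 9 libraries, with genes in rows by role and libraries in columns; colours are capped at the ends of the scale. Right of the line, aged 3, aged 4 and young 4 are red for most genes; left of it, Cat, Gclc, Gclm, Nqo1, Prdx2, Prdx3 and Gstm5 are bluer in aged 1, 2 and 5 than in young 1 to 3.

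Within the sets, the aged libraries lay below the young ones for more members than above. In the 6-library set 11 members had all of aged 1, 2 and 5 below all of young 1 to 3, against 16.6% of all genes. For 3 members (Gstm4, Gsto1 and Nfe2l2) they were all above, against 13.7%. Aged 3 and aged 4 were both below young 4 for 18 members, against 32.1% of all genes, and both above it for 1 (Gstz1), against 25.2%. In both sets, 8 members were lower (Cat, Nqo1, Gpx1, Gpx4, Prdx2, Prdx3, Gstm5 and Gstp3), against 9.62% of all genes, and 0 were higher in both, against 5.68%. Within the 6-library set alone, edgeR called 0 members and 2 of 16644 genes (0.012%). The age differences in the set of 3 rest on 1 young library and are given without a test.

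Nqo1 (ENSMUSG00000003849), a quinone reductase and a widely used readout of Nrf2, had the smallest p of all members in the fit on age alone. It stood at 3.93, 9.34, 6.86, 5.25 and 7.23 CPM in aged 1 to 5, against 12.3, 14.7, 13.6 and 14.5 CPM in young 1 to 4. Every aged library was below every young library. Aged over young, the log2 fold change was −1.08 (SE 0.26, edgeR adjusted p = 0.266), while the set-term fit gave −1.07 (SE 0.24, edgeR adjusted p = 0.0582). In the authors' deposited table Nqo1 was the only member with an adjusted p under 0.05 (log2 fold change −1.07, adjusted p = 0.0195), against 0.527% of all rows. DESeq2, the method named for the deposited comparison, was run again on the same counts. It called Nqo1 alone among members at nearly the same adjusted p (0.0195), against 1.57% of all genes, so these results are not independent. Aged 5, the aged library with Y-linked transcripts, was below young 1 to 3 by 0.89 on the log2 scale.

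Catalase (Cat, ENSMUSG00000027187), the peroxisomal enzyme that splits hydrogen peroxide, showed the same order. It stood at 117, 136, 137, 77.2 and 125 CPM in aged 1 to 5, against 186, 206, 189 and 186 CPM in young 1 to 4. The groups did not overlap, aged 4 was lowest and the young libraries lay close together. From the age-only fit, the log2 fold change was −0.69 (SE 0.20, edgeR adjusted p = 0.322), while the set-term fit gave −0.67 (SE 0.16, edgeR adjusted p = 0.0646). Aged 5 was below young 1 to 3 by 0.63 on the log2 scale. Nqo1 and Cat were the 2 members whose groups did not overlap, both lower in aged libraries, against 4.43% of all genes in either direction and 2.76% lower. The separation depended on scaling: with library totals and no factors, young 4 was at 131 CPM for Cat, below aged 1, 2 and 5 (138, 155 and 142), and at 10.2 CPM for Nqo1, below aged 2 (10.6), so that both overlapped.

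**Figure D4:**
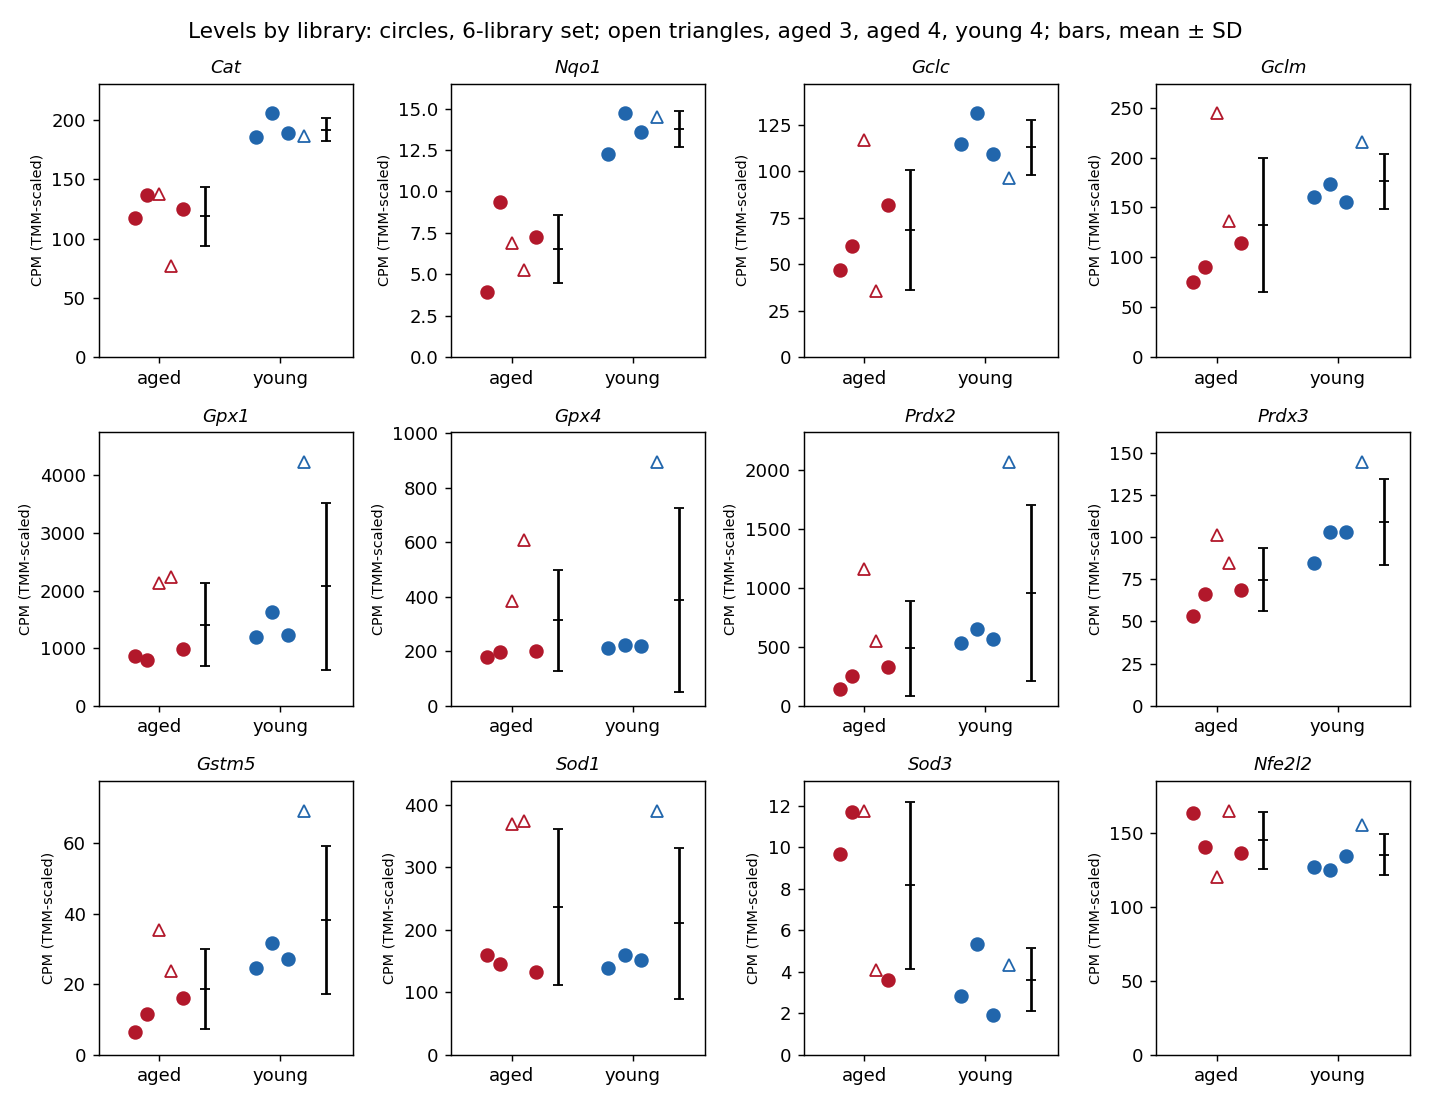
CPM (TMM-scaled, axis from 0) of 12 members in each library, aged left of young; circles are the 6-library set, open triangles are aged 3, aged 4 and young 4, and bars give mean ± SD (n = 5 and 4). Cat and Nqo1 separate the ages in both sets, Prdx2, Gpx1, Gstm5 and Prdx3 separate them within each set, and Sod1 and Nfe2l2 do not.

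None of the 3 superoxide dismutases passed in either fit. Sod1 (ENSMUSG00000022982), the copper and zinc enzyme of the cytosol, stood at 159, 145, 369.8, 374 and 132 CPM in aged 1 to 5, against 139, 159.8, 152 and 391 CPM in young 1 to 4. Its CPM followed the library set, at 369.8 to 390.6 in aged 3, aged 4 and young 4 and 132.5 to 159.8 in the other 6, and its groups overlapped. In TPM the sets overlapped, with aged 1 at 588, above aged 3 (541) and young 4 (482). Across all 9 libraries, the log2 fold change was 0.17 (SE 0.45, edgeR adjusted p = 1.00), and −0.05 (SE 0.10, adjusted p = 0.853) with the library set as a term, where the direction turned. Sod2, the manganese enzyme of mitochondria, averaged 86.4 ± 22.7 CPM in aged and 75.3 ± 26.3 CPM in young libraries (SD, n = 5 and 4, edgeR adjusted p = 1.00). Sod3 (ENSMUSG00000072941), the secreted enzyme of the extracellular matrix, stood at 9.66, 11.7, 11.8, 4.10 and 3.62 CPM in aged 1 to 5, against 2.85, 5.36, 1.93 and 4.35 CPM in young 1 to 4. Aged 1, 2 and 3 were above every young library, and aged 4 and aged 5 lay among the young. On age alone, the log2 fold change was 1.17 (SE 0.46, edgeR adjusted p = 0.483). Aged 5 exceeded young 1 to 3 by 0.22 on the log2 scale.

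Of the 5 tested glutathione peroxidases, 4 were below 0 in the fit on age alone and all 5 with the set term. Gpx1 (ENSMUSG00000063856) stood at 873, 802, 2137, 2240.0 and 979 CPM in aged 1 to 5, against 1189, 1631, 1234 and 4235 CPM in young 1 to 4. Within each set the aged libraries were below the young, but aged 3 and aged 4 exceeded young 1 to 3, so the groups overlapped. Aged over young, the log2 fold change was −0.56 (SE 0.49, edgeR adjusted p = 0.958), with a sign that turned without young 4 (0.06). With the library set as a term Gpx1 fell, at −0.72 (SE 0.15, edgeR adjusted p = 0.0492). Aged 5 was below young 1 to 3 by 0.45 on the log2 scale. Gpx4 (ENSMUSG00000075706), which reduces lipid peroxides in membranes, stood at 180.1, 197, 384, 609.9 and 202 CPM in aged 1 to 5, against 213, 225, 218 and 895 CPM in young 1 to 4. Young 4 was far above young 1 to 3. From the age-only fit, the log2 fold change was −0.30 (SE 0.55, edgeR adjusted p = 1.00), with a sign that turned without young 4 (0.53), while the set-term fit gave −0.39 (SE 0.17, edgeR adjusted p = 0.252). Gpx3, the secreted plasma enzyme, averaged 190.8 ± 25.8 CPM in aged and 211.1 ± 78.0 CPM in young libraries. Gpx7 and Gpx8 are both of the endoplasmic reticulum. Gpx7 ranged from 1.47 to 3.53 CPM in aged and 1.98 to 5.91 CPM in young libraries, and Gpx8 from 5.13 to 30.6 CPM in aged and 8.69 to 22.3 CPM in young libraries. None of these 3 passed in either fit.

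The 6 tested peroxiredoxins divided by member. Prdx2 (ENSMUSG00000005161), the abundant cytosolic form of red cells, stood at 146, 255, 1157, 546 and 331 CPM in aged 1 to 5, against 532, 648, 566 and 2066 CPM in young 1 to 4. Young 4 was highest and aged 1 lowest, and the aged libraries were below the young in each set. Across all 9 libraries, the log2 fold change was −0.97 (SE 0.63, edgeR adjusted p = 0.827), while the set-term fit gave −1.26 (SE 0.27, edgeR adjusted p = 0.05004), just past the threshold. Prdx3 (ENSMUSG00000024997), the mitochondrial form, stood at 53.4, 66.4, 101, 84.5 and 68.5 CPM in aged 1 to 5, against 84.4, 103, 103 and 145 CPM in young 1 to 4. Aged 3 and aged 4 lay among the young libraries, and aged 1, 2 and 5 lay below them all. On age alone, the log2 fold change was −0.54 (SE 0.23, edgeR adjusted p = 0.544), while under the set term Prdx3 fell, at −0.63 (SE 0.12, edgeR adjusted p = 0.0405). Aged 5 was below young 1 to 3 by 0.81 for Prdx2 and by 0.49 for Prdx3 on the log2 scale.

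Prdx1 (ENSMUSG00000028691), a cytosolic form like Prdx2, stood at 148, 139, 354, 385 and 133 CPM in aged 1 to 5, against 119.8, 134, 139 and 405 CPM in young 1 to 4. In CPM it followed the library set and not age, while in TPM aged 1 (208) lay above aged 3 (166) and young 4 (172). Aged over young, the log2 fold change was 0.22 (SE 0.49, edgeR adjusted p = 1.00), while the set-term fit gave 0.03 (SE 0.10, edgeR adjusted p = 0.932). Within a library the scaling factor cancels, but TPM and CPM can still give unlike ratios. The TPM ratio of Prdx2 to Prdx1 was 0.893, 1.98, 4.81, 1.68 and 2.64 in aged 1 to 5, against 4.56, 5.47, 4.65 and 5.89 in young 1 to 4. Aged 3 lay among the young libraries in this TPM ratio and the other 4 aged libraries below them. In aged 3, Prdx2 and Prdx1 were at 798 and 166 TPM but at 1157 and 354 CPM, so its place depends on the measure. This pair was chosen after its values were seen, so the ratio has no test.

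Prdx5 (ENSMUSG00000024953), found in mitochondria and peroxisomes, stood at 357, 252, 712, 1286 and 339 CPM in aged 1 to 5, against 298, 265, 326 and 1039 CPM in young 1 to 4. Its groups overlapped and aged 4 and young 4 were highest. From the age-only fit, the log2 fold change was 0.29 (SE 0.58, edgeR adjusted p = 1.00), while the set-term fit gave 0.05 (SE 0.19, edgeR adjusted p = 0.932). Prdx4, the form of the endoplasmic reticulum, ranged from 17.2 to 91.9 CPM in aged and from 22.7 to 66.1 CPM in young libraries. Prdx6, which uses glutathione in place of thioredoxin, ranged from 95.4 to 229.5 CPM in aged and from 103.9 to 196.4 CPM in young libraries. Neither passed in either fit, with log2 fold changes of 0.46 (SE 0.49) and 0.13 (SE 0.31).

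Both subunits of glutamate-cysteine ligase were lower on average in aged libraries, while Gss differed little. Gclc (ENSMUSG00000032350), the catalytic subunit of the first and limiting step, stood at 46.9, 59.99, 117, 35.7 and 82.0 CPM in aged 1 to 5, against 115, 131, 109 and 96.1 CPM in young 1 to 4. Aged 3 lay among the young libraries and aged 4 was lowest. Across all 9 libraries, the log2 fold change was −0.72 (SE 0.32, edgeR adjusted p = 0.552), while the set-term fit gave −0.74 (SE 0.32, edgeR adjusted p = 0.247). Its modifier subunit Gclm (ENSMUSG00000028124) stood at 74.8, 90.1, 245, 136 and 115 CPM in aged 1 to 5, against 160.5, 173, 156 and 215 CPM in young 1 to 4. Aged 3 was the highest of all 9 libraries, while aged 1, 2 and 5 were below every young library. On age alone, the log2 fold change was −0.42 (SE 0.33, edgeR adjusted p = 0.919), while the set-term fit gave −0.62 (SE 0.21, edgeR adjusted p = 0.145). Gss averaged 15.4 ± 5.01 CPM in aged and 16.0 ± 6.90 CPM in young libraries and did not pass in either fit.

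The recycling enzymes did not share this direction. Gsr (ENSMUSG00000031584), which reduces oxidised glutathione and is abundant in neutrophils, stood at 444, 315, 412, 1289.6 and 557 CPM in aged 1 to 5, against 399, 338, 386 and 555 CPM in young 1 to 4. Aged 4 was far above all other libraries, among which the ages overlapped. Aged over young, the log2 fold change was 0.53 (SE 0.41, edgeR adjusted p = 0.911), with a range of 0.04 to 0.69 on leaving out single libraries, the lowest without aged 4. Aged 4 also had the largest summed TPM of neutrophil markers (148831, against 45571 to 95303 in the other aged and 64687 to 85380 in young libraries). Most of that sum was S100a8 and S100a9, at 31423 and 73237 TPM. Camp, Ltf, Prtn3 and Retnlg were also higher in aged 4 than in aged 1. Ngp, Mmp8, Mmp9, Elane, Mpo, Ctsg, Cxcr2, Csf3r and Lcn2 were lower in aged 4 than in aged 1. The part of neutrophils in the Gsr value was not tested. Txn1 (ENSMUSG00000028367), the electron donor of peroxiredoxins, stood at 198, 136, 441, 683 and 157 CPM in aged 1 to 5, against 143, 148, 161 and 561 CPM in young 1 to 4. It was highest in aged 4 and young 4, with a log2 fold change of 0.35 (SE 0.60, edgeR adjusted p = 1.00) in the fit on age alone, and its sign turned without aged 4 (−0.12). Txnrd1, which reduces thioredoxin, ranged narrowly, from 60.1 to 94.7 CPM in aged and from 67.8 to 82.1 CPM in young libraries (log2 fold change 0.07, SE 0.17, edgeR adjusted p = 1.00).

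Among 14 tested glutathione transferases, 9 were above 0 and 5 below in the fit on age alone. Gstm5 (ENSMUSG00000004032), of the mu class, stood at 6.51, 11.4, 35.2, 23.8 and 16.2 CPM in aged 1 to 5, against 24.4, 31.6, 27.2 and 69.2 CPM in young 1 to 4. Within each set every aged library was below every young one, and aged 3 exceeded young 1 to 3. From the age-only fit, the log2 fold change was −1.03 (SE 0.48, edgeR adjusted p = 0.599), while under the set term Gstm5 fell, at −1.27 (SE 0.24, edgeR adjusted p = 0.0425). Aged 5 was below young 1 to 3 by 0.77 on the log2 scale. The more abundant mu-class member Gstm1 averaged 129.9 ± 26.7 CPM in aged and 121.8 ± 45.7 CPM in young libraries. The TPM ratio of Gstm5 to Gstm1 was 0.0610, 0.198, 0.381, 0.173 and 0.196 in aged 1 to 5, against 0.338, 0.598, 0.444 and 0.489 in young 1 to 4, with aged 3 above the lowest young library. The pi-class Gstp1 ranged from 44.7 to 156.9 CPM in aged and from 46.2 to 163.7 CPM in young libraries, and the omega-class Gsto1 from 43.4 to 69.3 CPM in aged and from 38.5 to 63.6 CPM in young libraries. The lesser members (Gsta4, Gstm2, Gstm4, Gstm7, Gstp2, Gstp3, Gstt1, Gstt2, Gstt3 and Gstz1) stayed below 22 CPM in all libraries. Their log2 fold changes ran from −0.64 (Gstp3) to 0.55 (Gstm7), and 0 passed in either fit. Gstm4 and Gstt3 were at 1.10 and 0.86 CPM in aged 3, against 6.13 to 17.03 and 2.52 to 5.60 CPM in the other 8 libraries.

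Nfe2l2 (ENSMUSG00000015839), which encodes Nrf2, stood at 164, 141, 120.4, 165 and 136 CPM in aged 1 to 5, against 127, 125, 134 and 155 CPM in young 1 to 4. The groups overlapped, although aged 1, 2 and 5 were all above young 1 to 3. The log2 fold change was 0.10 (SE 0.17, edgeR adjusted p = 1.00). Nrf2 is controlled mainly by degradation of its protein through Keap1, which RNA levels do not show. The TPM ratio of Nqo1 to Nfe2l2 was 0.0407, 0.113, 0.0960, 0.0532 and 0.0894 in aged 1 to 5, against 0.165, 0.200, 0.172 and 0.158 in young 1 to 4. The groups did not overlap in this ratio, which was chosen after its values were seen and has no test.

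The upstream sequences of members known as Nrf2 targets show where the element lies, and whether members that carry it moved alike. RefSeq start regions (GRCm38.p6, 250 bases before to 50 after the start) were found for 41 of the 57 members, 31 of them tested. The core of the antioxidant response element, TGACNNNGC, searched on both strands, was in at least 1 start region of 8 of the 41 (19.5%), against 14.0% of all 27025 genes with such a region. Besides Gsta3, which had too few counts to test, the 8 held 7 tested members, Gclm, Gstm5, Gstm7, Nfe2l2, Prdx1, Sod1 and Txnrd1. Below are the regions of Gstm5 and Gclm, which were lower in aged libraries of the 6-library set, and of Prdx1 and Txnrd1, which were not, with the motif in capitals (its first base is base 209, 117, 118 and 159 of the 300, and it lies on the minus strand relative to the gene in Gclm, Prdx1 and Txnrd1), and then that of Nqo1, which holds no match in this window.
Gstm5 (chr3:107895604-107895903, strand +): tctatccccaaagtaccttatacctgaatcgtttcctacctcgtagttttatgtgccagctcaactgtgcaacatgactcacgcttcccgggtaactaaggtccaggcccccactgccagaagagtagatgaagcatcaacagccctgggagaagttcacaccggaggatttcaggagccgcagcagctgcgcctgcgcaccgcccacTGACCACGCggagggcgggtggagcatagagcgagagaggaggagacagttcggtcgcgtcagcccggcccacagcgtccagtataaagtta
Gclm (chr3:122245307-122245606, strand +): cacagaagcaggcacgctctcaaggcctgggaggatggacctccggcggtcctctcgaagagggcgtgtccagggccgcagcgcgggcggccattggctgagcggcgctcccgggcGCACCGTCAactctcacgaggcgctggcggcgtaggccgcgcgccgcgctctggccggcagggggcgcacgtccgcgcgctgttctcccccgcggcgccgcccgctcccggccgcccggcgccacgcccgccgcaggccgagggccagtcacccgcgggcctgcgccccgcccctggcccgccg
Prdx1 (chr4:116685349-116685648, strand +): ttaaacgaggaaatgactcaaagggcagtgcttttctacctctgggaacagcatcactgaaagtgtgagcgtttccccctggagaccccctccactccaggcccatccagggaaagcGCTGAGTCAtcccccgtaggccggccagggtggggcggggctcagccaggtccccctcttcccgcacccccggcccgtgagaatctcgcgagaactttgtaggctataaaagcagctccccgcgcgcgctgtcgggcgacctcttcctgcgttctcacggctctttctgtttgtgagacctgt
Txnrd1 (chr10:82858956-82859255, strand +): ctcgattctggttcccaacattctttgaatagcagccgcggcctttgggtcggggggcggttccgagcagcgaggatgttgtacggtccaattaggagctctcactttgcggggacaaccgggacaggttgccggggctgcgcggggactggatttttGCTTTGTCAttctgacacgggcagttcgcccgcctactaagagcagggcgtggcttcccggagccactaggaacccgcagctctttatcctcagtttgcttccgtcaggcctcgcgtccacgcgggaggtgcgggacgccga
Nqo1 (chr8:107403156-107403455, strand -): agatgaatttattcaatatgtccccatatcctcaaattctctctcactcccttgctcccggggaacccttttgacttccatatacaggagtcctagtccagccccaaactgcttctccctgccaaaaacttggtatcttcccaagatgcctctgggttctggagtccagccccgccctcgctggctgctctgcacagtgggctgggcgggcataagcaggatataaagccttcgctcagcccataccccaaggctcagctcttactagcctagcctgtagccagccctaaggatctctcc
A match is only a match of letters, and members with it did not share a direction: the log2 fold changes with the library set term were −1.27 for Gstm5, −0.62 for Gclm, −0.05 for Sod1, 0.03 for Prdx1, 0.09 for Nfe2l2, 0.10 for Txnrd1 and 0.28 for Gstm7. Of these 7 only Gstm5 passed.

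Markers of red cell precursors were lower on average in aged libraries too. All 17 erythroid markers found, hemoglobin genes included and with 0 of them at 0, had a log2 fold change below 0 (median −1.23), and 1 passed with the set term. Their summed TPM was 26439.5, 67054, 296426, 87429 and 117709 in aged 1 to 5, against 226095, 274154, 231024 and 399578 in young 1 to 4. Aged 1 had the lowest erythroid sum and the lowest TPM of Prdx2 (186) and Gstm5 (14.2), while young 4 had the highest erythroid sum and the highest TPM of Prdx2 (1011) and Gpx1 (3334). Aged 3, with an erythroid sum above those of young 1 to 3, had 798 TPM of Prdx2, above young 1 to 3 (593 to 682), but 29.0 TPM of Gstm5, below all young libraries (45.8 to 55.9). Gpx1 did not follow the erythroid sum in every library: aged 4 had 2544 TPM of Gpx1, above young 1 and young 3 (2169 and 2130) at a lower erythroid sum, and Gpx1 was lowest in aged 2 (1414). Osteoblast and osteocyte markers were also below 0 in 13 of 13, with summed TPM of 194 to 1391 in aged and 1459 to 4002 in young libraries. Macrophage and monocyte markers were above 0 in 12 of 15, with summed TPM of 1855 to 5754 in aged and 1089 to 2193 in young libraries, and plasma cell genes were above 0 in 12 of 12. B cell progenitor markers were below 0 in 13 of 13 (median −0.83), T and NK cell markers above 0 in 11 of 13 (0.56) and adipocyte markers above 0 in 8 of 8 (0.58). With the set term 3 plasma cell, 3 T and NK cell and 2 macrophage markers passed, all higher, and 1 osteoblast and osteocyte marker passed, lower. Over all genes, 0.615% passed higher and 1.31% lower. The part of these cell types in the differences was not tested, and fewer cells of a type cannot be told apart from less RNA per cell.

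**Figure D5:**
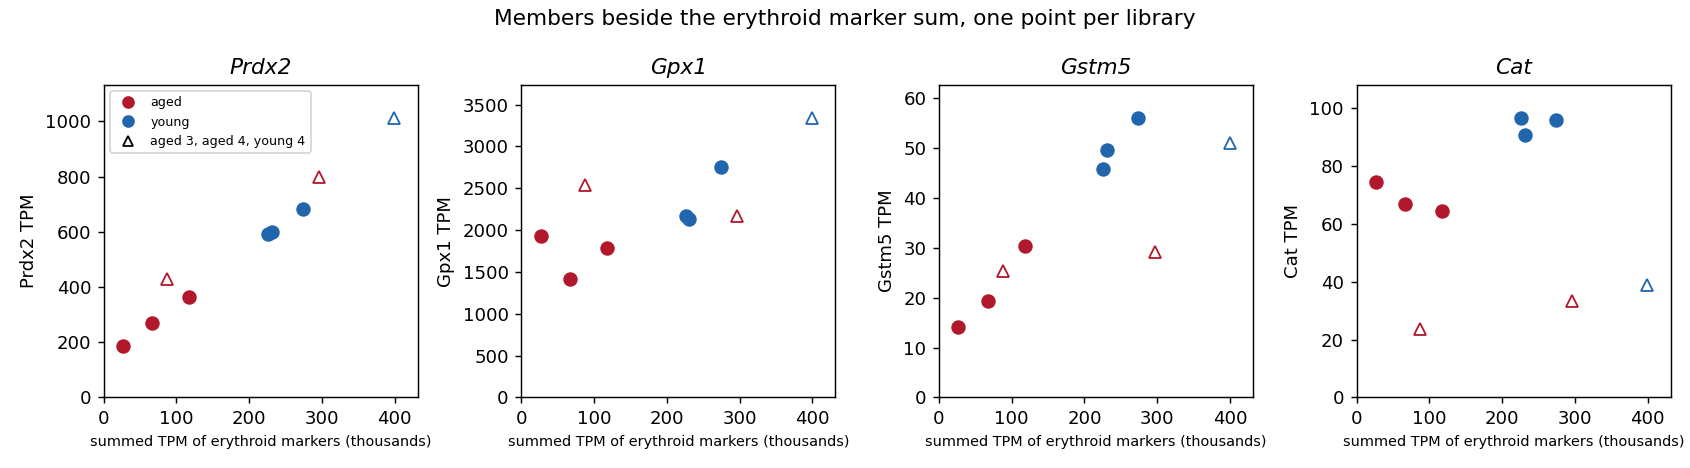
TPM of Prdx2, Gpx1, Gstm5 and Cat against the summed TPM of 17 erythroid markers, 1 point per library, aged in red and young in blue, with aged 3, aged 4 and young 4 as open triangles. Prdx2 is lowest in aged 1 (186 TPM) and highest in young 4 (1011 TPM), while Cat is lowest in the 3 triangles.

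Around these enzymes, 5 further lists of the same pathways were examined, with 91 tested genes between them. Of these, 6 passed with the library set as a term, 1 higher and 5 lower, against 1.92% of all genes (0.615% higher and 1.31% lower), and 0 passed in the fit on age alone. None of the 6 passed on leaving out any one of aged 1, 2 or 4 or young 1 to 4, and all 6 passed without aged 3 and without aged 5. Of 24 other glutathione genes, Dpep2, a membrane dipeptidase, rose, at 8.06 ± 3.29 CPM in aged and 2.20 ± 0.328 CPM in young libraries (log2 fold change 1.90, SE 0.32, edgeR adjusted p = 0.0405 with the set term), and its groups did not overlap. Glo1, the glyoxalase that uses glutathione, and Glrx5, the mitochondrial glutaredoxin of iron-sulfur cluster assembly, fell by 0.63 and 1.07 on the log2 scale (set-term fit, edgeR adjusted p = 0.0405 for Glo1 and 0.0466 for Glrx5), although in the fit on age alone the Glrx5 value turned to 0.57 without young 4. Aged 5 differed from young 1 to 3 by 2.15 for Dpep2, −0.43 for Glo1 and −0.70 for Glrx5 on the log2 scale. Ggt1, the glutathione-cleaving enzyme of the cell surface, was at 6.24 ± 5.82 CPM in aged and 1.68 ± 0.298 CPM in young libraries and did not pass (adjusted p = 0.463). Oplah, the 5-oxoprolinase of the same cycle, was at 6.28 ± 1.41 CPM in aged and 4.01 ± 0.638 CPM in young libraries and did not pass (adjusted p = 0.483).

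Of 20 other thioredoxin and repair genes, Txnrd2 and Sesn1 fell. Txnrd2, the mitochondrial thioredoxin reductase that serves Prdx3, was at 21.3, 25.1, 35.2, 40.2 and 30.9 CPM in aged 1 to 5, against 51.1, 60.2, 53.1 and 95.5 CPM in young 1 to 4. The groups did not overlap, and Txnrd2 fell by 1.17 (log2, SE 0.13, edgeR adjusted p = 0.0405 in the set-term fit). Sesn1, a sestrin, was at 42.8 ± 3.53 CPM in aged and 65.9 ± 11.7 CPM in young libraries, without overlap. It fell by 0.65 (SE 0.11, edgeR adjusted p = 0.0405 with the set term). Txnrd3 was at 4.37 ± 0.679 CPM in aged and 6.90 ± 1.23 CPM in young libraries, without overlap, and did not pass (adjusted p = 0.124 with the set term). Aged 5 differed from young 1 to 3 by −0.82 for Txnrd2 and −0.71 for Sesn1 on the log2 scale.

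Of 24 Nrf2 regulators and further targets 1 passed: Mafk, a small Maf protein that binds DNA together with Nrf2, fell by 0.72 (SE 0.12, edgeR adjusted p = 0.0405 with the set term). It was at 38.4, 51.6, 47.4, 39.2 and 50.5 CPM in aged 1 to 5, against 74.5, 80.3, 71.7 and 75.4 CPM in young 1 to 4, without overlap, and aged 5 differed from young 1 to 3 by −0.58 on the log2 scale. Another small Maf gene, Maff, was at 3.61 ± 2.77 CPM in aged and 0.894 ± 0.125 CPM in young libraries, without overlap, and the heme transporter Slc48a1 at 115.4 ± 16.3 CPM in aged and 182.1 ± 41.4 CPM in young libraries. Neither passed (adjusted p = 0.0640 and 0.0552 with the set term). Of 11 NADPH supply genes and 12 genes listed as oxidant sources, 0 passed in either fit. Idh1, Idh2 and Nnt had the smallest unadjusted p among the first, with log2 fold changes of 0.47, 0.35 and 0.34, and Ncf4, Mpo and Nos2 among the second, with 0.28, 0.31 and 1.04. The medians of the 5 lists in the fit on age alone were 0.16 for glutathione handling, −0.02 for thioredoxin and repair, 0.08 for NADPH supply, −0.02 for Nrf2 regulators and 0.08 for oxidant sources, against 0.03 over all genes.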

How the data were processed

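RNA of 5 aged and 4 young mice was sequenced. The authors' deposited table gives, per gene and library, estimated counts (not all whole) and TPM, with log2 fold changes, p-values and adjusted p-values of their own comparison. Bowtie 0.12.2 and mm8 are named without a role, per the submitters' processing notes; the quantifier and annotation are not given in the sources used here. Read coordinates were not used, and start regions came from RefSeq (GRCm38.p6).

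Estimated counts were rounded. Genes were filtered with filterByExpr (minimum count 10, minimum total 15), scaled by TMM and tested with edgeR 4.0.16 quasi-likelihood fits (R 4.3.3), with Benjamini-Hochberg adjustment over 16576 genes and a threshold of 0.05. SE is the absolute log2 fold change divided by the square root of F. CPM is TMM-scaled. A second fit added the library set (aged 3, aged 4 and young 4 against the other 6). DESeq2 1.42.0 and limma 3.58.1 (voom) were alternatives, along with other scalings and filters, left-out libraries and a replicate block. The deposited p-values, adjusted p-values and log2 fold changes were copied as the authors gave them.

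The members, the gene lists and the library set were chosen with earlier results of these data known. Full values are given for members past the threshold in either fit, members whose groups do not overlap, the 8 with the highest mean TPM and the smallest p of each role; those of Gclm and the ratios were added after their values were seen. Genes of the other pathway lists are named where past the threshold, and otherwise the 3 of smallest p. The closest pair of libraries differed by more than sampling noise. Replicate numbers were not taken as pairs. Same-numbered deviations correlated at 0.456, 0.554, −0.387 and 0.739 for numbers 1 to 4, which does not settle whether the libraries were paired. Depth was 19804883 to 23548594 estimated counts a library. The fit on age alone was checked on simulated counts that held no library set effect. Their spread was that of the set-term fit, which is smaller than that of the fit on age alone. The set-term fit was not checked in this way.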

Additional observations from a re-analysis of the deposited data

Results flagged for a closer look

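For each of the 15 members given in full, the highest and lowest library of each age was set against the others by Dixon's ratio. This gave 8 flags in 30 groups. The chance rate of about 1 in 20 holds for independent groups. These groups share the same 9 libraries, so the count is not set against that rate. Young 4 stood far above the other young libraries for 6 members: Txn1 at 561.1 CPM, Gpx4 at 895.3, Prdx1 at 405.4, Prdx2 at 2066, Prdx5 at 1039 and Sod1 at 390.6. Young 4 belongs to the set of 3 libraries shown apart in the report. For Cat, aged 4 was far below the other aged libraries, at 77.2 CPM, and young 2 was above the other young libraries, at 206.2 CPM.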

How the results depend on the processing

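With age alone, edgeR called 0 genes and 0 members. Over all genes, DESeq2 called 299, the library set term 319, the 6-library set alone 2, and leaving out single libraries 0 to 6, the 6 without aged 5. Among members, DESeq2 called 1, the set term 3, and leaving out single libraries 0 to 0. The replicate block called 13 genes without the set term and 1485 with it, and 8 members with it; same-numbered libraries correlated at 0.456, 0.554, −0.387 and 0.739, so the numbers are not taken as pairs. With the set term, leaving out single libraries gave 0 to 1633 genes (1633 without aged 3, 712 without aged 5, 0 to 2 without any other) and 0 to 8 members. The count of members whose groups did not overlap was 2 with TMM and 1 with deposited TPM (Gstm5), an alternative added after seeing the data; library totals gave 2 others, Prdx3 lower and Gsto1 higher. The Sod1 value turned to −0.052 with the set term, −0.0345 in the 6-library set and −0.0012 with the set term and replicate block, and the cause was not tested. Leaving out single libraries, which turned the sign of each, gave −0.059 to 0.65 for Sod1, −0.12 to 1.10 for Txn1, −0.79 to 0.058 for Gpx1, −0.69 to 0.53 for Gpx4, −0.043 to 0.82 for Prdx1 and −0.22 to 0.99 for Prdx5, and −1.41 to 0.57 for Glrx5. Of 703 single-gene values under alternatives, 641 kept direction and side of the threshold and 22 turned sign, 11 of these within the 3-library set or between aged 5 and young 1 to 3, where no test was made. The all-gene median was 0.04, 0.04 and 0.07 under RLE, upper quartile and library totals.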
